A study of Sus scrofa with 4 samples.

Results

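The proteasome genes of porcine intramuscular preadipocytes (PIP) and of the mature adipocytes (pMA) derived from them were described on 4 oligonucleotide arrays. Members were all gene names on non-control spots that begin with PSMA, PSMB, PSMC, PSMD, PSME, PSMF or PSMG followed by a number, and 24 of the 34853 gene names on the array met this rule. They carried 63 probes of 60 bases. PIP is a cell line from the longissimus thoracis muscle of a Duroc pig, so all 4 groups share 1 animal of origin. The PIP group was not given differentiation medium. The pMA group was kept for 4 days in medium with 50 ng/ml insulin, 0.25 µM dexamethasone, 2 mM octanoate and 200 µM oleate. The other groups were pMA given serotonin, with a dose of 100 µM, or TNF-α, at 2.5 µg/ml, for 12 h. The labels do not say whether unstimulated pMA were held for the same 12 h. Each group was measured on 1 array, with RNA pooled within the group according to the methods, so the differences below carry no check over replicates and come without p-values.

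The proteasome degrades proteins tagged with ubiquitin. Its barrel-shaped core is built from rings of alpha (PSMA) and beta (PSMB) subunits, and PSMB5, PSMB6 and PSMB7 carry the active sites. A regulatory particle of PSMC ATPases and PSMD subunits binds, unfolds and feeds in the substrates. Under interferon-γ or TNF-α many cells replace the active subunits by the inducible PSMB8 (for PSMB5), PSMB9 (for PSMB6) and PSMB10 (for PSMB7), which gives the immunoproteasome, and make more of the activator PA28, formed by PSME1 and PSME2. The peptides it cuts are carried by the transporter TAP1/TAP2 to class I molecules. In adipocytes the proteasome also takes part in the turnover of proteins during differentiation.

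The members comprised the inducible subunits PSMB8, PSMB9, PSMB10, PSME1 and PSME2, which are 5 genes, and 19 other members. The latter were 5 alpha subunits (PSMA1, PSMA3, PSMA4, PSMA5 and PSMA6), the structural beta subunits PSMB3 and PSMB4, the active subunits PSMB6 and PSMB7, the ATPases PSMC1 and PSMC6, the regulatory subunits PSMD1, PSMD4, PSMD12 and PSMD14, the activator PSME3, the assembly chaperones PSMG1 and PSMD5, and PSMB11, the form of thymic epithelium. PSMB5 did not match the rule under its array name and is given below from its gene ID. In the RefSeq gene table, assembly Sscrofa11.1, PSMB8 lies between TAP2 and TAP1 and PSMB9 follows TAP1. In the same table PSME2 lies between IRF9 and EMC9, and PSME1 follows EMC9. The scanner files name no genome build and map no probe, so coordinates are not printed.

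The brightest probes of the inducible subunits that stood farthest apart between the arrays, and of PSMB7 as a constitutive counterpart, read as follows on the array, 5′ to 3′. Capitals mark the 37 bases of the PSMB8 probe that a second PSMB8 probe also covers, so these probes are not separate readings of the transcript.
PSMB8: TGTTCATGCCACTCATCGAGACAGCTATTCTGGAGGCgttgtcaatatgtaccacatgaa
PSMB9: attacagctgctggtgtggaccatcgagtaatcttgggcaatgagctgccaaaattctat
PSME2: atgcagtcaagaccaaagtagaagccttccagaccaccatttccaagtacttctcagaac
PSMB7: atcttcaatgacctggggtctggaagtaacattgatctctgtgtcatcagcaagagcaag
The 4 probes have the same GC content of 45%.

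Levels are log2 intensities relative to the 75th percentile of the same array, and a difference of 1 is 2-fold. They are compared between arrays for 1 probe only, never between genes. All 63 probes were well above background, unsaturated and free of outlier marks on every array, so no member was lost to a filter. The 75th percentile of intensity lay between 479 and 566 over the arrays, and 56.5% to 66.0% of the spots were well above background. Repeated spots of the same probe gave a technical SD of 0.17 to 0.20 for a log2 ratio between 2 arrays, which covers spot noise only and not the spread between cultures. Spike-in controls stood 0.38 lower on the pMA array than on the PIP array after this scaling, and 0.46 lower on the TNF-α array than on the PIP array, and the arrays of pMA differed among themselves by 0.13 or less. The number of arrays limits the precision.

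The label of the cells was checked on marker genes. In pMA the lipid droplet genes PLIN2 (log2 ratio 3.14) and CIDEC (3.88) and the fatty acid transporter CD36 (5.17) were above PIP, while ADIPOQ, CEBPA and PLIN1 were not well above background in pMA. Other probes gave as little as 0.75 for CIDEC and 1.19 for CD36. Of 10 adipocyte markers 8 had a ratio, with 7 above 0 and 5 past 2-fold higher, beside 9.94% of all gene names. PPARG was at 1.07, LPL at 0.38 and LEP at 0.31. ADIPOQ went the other way by a lower bound of -0.10, within the technical SD of 0.19. It was well above background in PIP alone, at -4.53 beside -4.83 in pMA. Both values were close to the faintest signals called well above background there (-5.13 and -4.64). Of 4 leukocyte markers on the array, CD14, AIF1 and CD3E were well above background on all arrays and CD163, a macrophage receptor, on none, and with TNF-α CD14 was 0.66 higher than in unstimulated pMA, AIF1 at -0.91 and CD3E at -0.10. Of 5 dividing-cell genes, 4 were past 2-fold lower in pMA than in PIP, beside 3.56% of all gene names. Relative to unstimulated pMA, 3 were past 2-fold lower after serotonin, beside 4.73% of all gene names. Among these, PBK and TOPOII were lower bounds of the change, while CDK1 (0.35) and MKI67 (0.43) were higher after serotonin. After TNF-α 4 were past 2-fold higher, beside 2.21% of all gene names. The summed signal of the 4 apart from MKI67, in multiples of the 75th percentile, was 23.9 in PIP, 0.991 in pMA, 0.744 after serotonin and 3.33 after TNF-α, while MKI67, which carried most of the sum of all 5, stood at 4.74, 4.33, 4.77 and 4.27 on the log2 scale. The share of the differences below that goes with cell division or with the mixture of cells was not tested, and fewer cells of a type and less RNA per cell cannot be told apart in bulk RNA.

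The inducible catalytic subunits were lowest in pMA and serotonin-treated pMA and higher in PIP and in pMA given TNF-α. PSMB8, which takes the place of PSMB5, stood at 1.98 in PIP, 0.04 in pMA, -0.14 after serotonin and 1.09 after TNF-α. PSMB9, which takes the place of PSMB6, stood at 3.96, 2.53, 2.15 and 3.79 on the same arrays. PSMB10, which takes the place of PSMB7, stood at 4.72, 4.08, 4.00 and 4.90. Every one of the 3 genes thus had its 2 lowest values on the unstimulated and serotonin arrays. With TNF-α, PSMB9 and PSMB10 were 0.17 below and 0.18 above their PIP level, while PSMB8 remained 0.89 below it. But with spike-in scaling PSMB9 and PSMB10 were 0.29 and 0.64 above their PIP level, and PSMB8 was 0.43 below it.

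The activator genes also had their 2 lowest values on these arrays. PSME2, the beta chain of PA28, stood at 5.69 in PIP, 4.55 in pMA, 4.28 after serotonin and 5.48 after TNF-α. PSME1, the alpha chain, stood at 4.84, 3.69, 3.70 and 4.32. After TNF-α they lay 0.21 and 0.53 below PIP, but with spike-in scaling PSME2 was 0.25 above PIP and PSME1 was 0.067 below it.

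**Figure D1:**
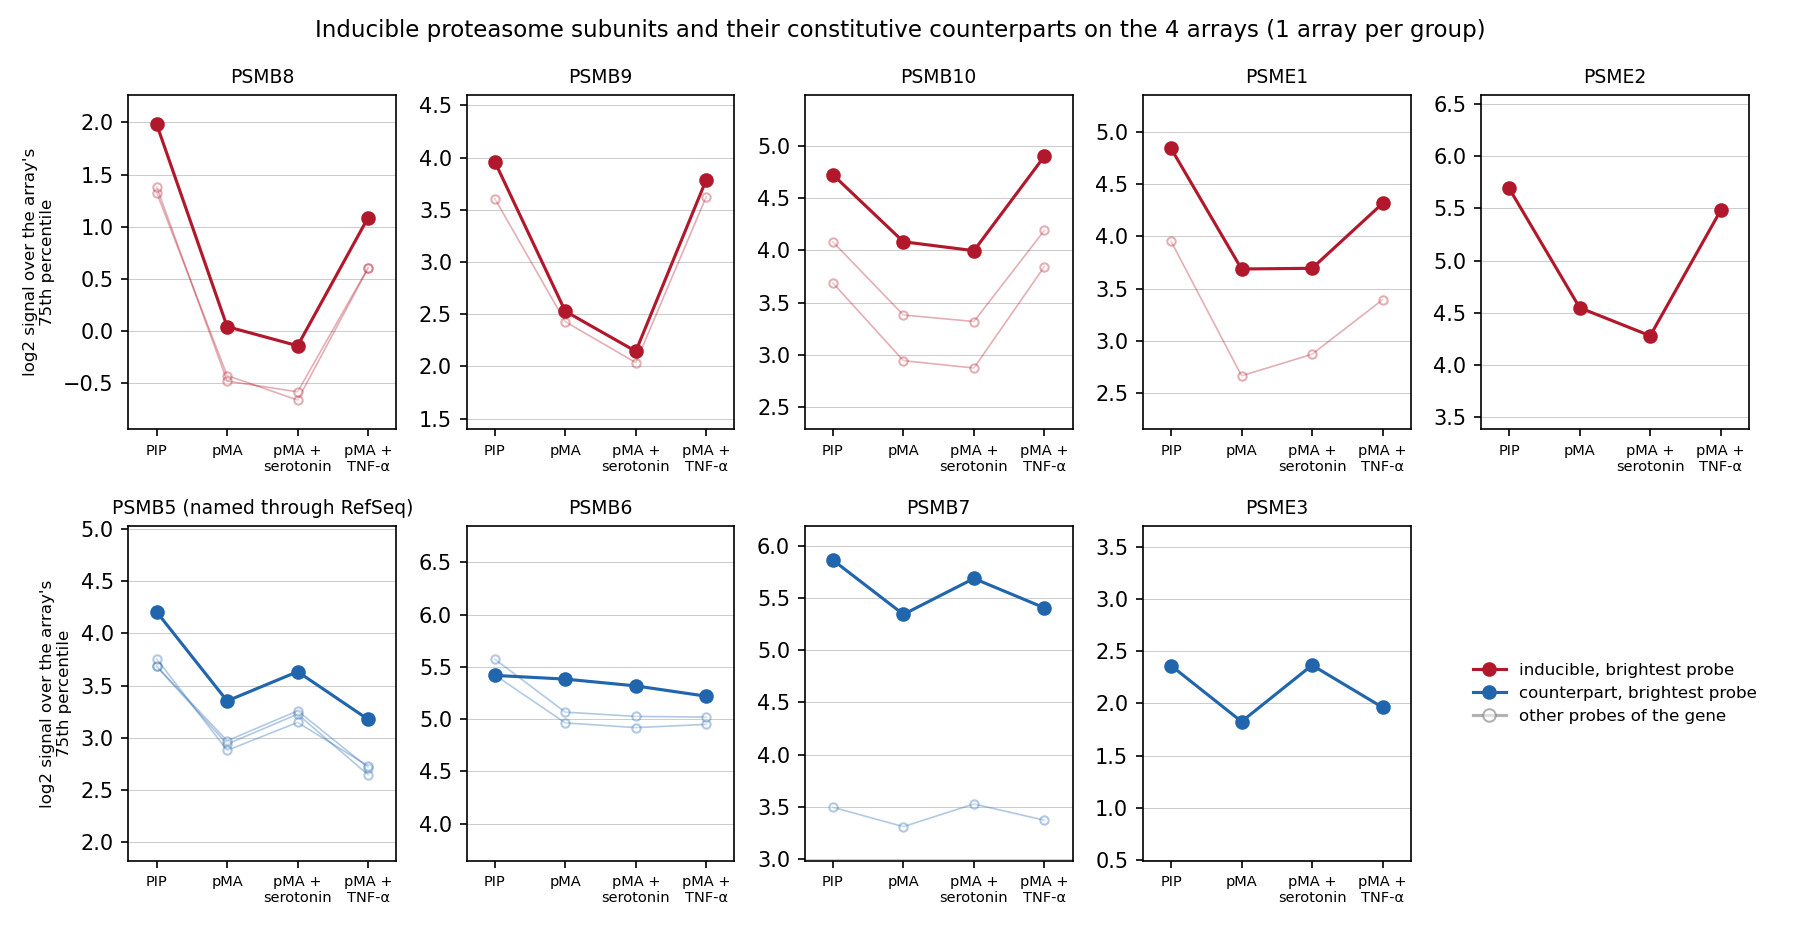
Level (y axis, log2 intensity over the 75th percentile of the array) of the inducible subunits (red) and of their constitutive counterparts (blue) on the 4 arrays (x axis), 1 array per group without error bars. Filled points are the brightest probe and open points the other probes of the gene. The red lines dip in pMA and after serotonin and are higher with TNF-α (PSMB9 3.79 against 2.53). PSMB5 (blue) is lowest with TNF-α (3.18), a step from pMA (3.35) within the technical SD. The y axes start at different levels, since levels are not comparable between genes.

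None of the constitutive counterparts had its 2 lowest values on the unstimulated and serotonin arrays. PSMB7 stood at 5.86 in PIP, 5.34 in pMA, 5.69 after serotonin and 5.40 after TNF-α. PSMB6 stood at 5.42, 5.38, 5.32 and 5.22, and its 3 probes gave pMA against PIP ratios from -0.51 to -0.04. PSMB5, carried on the array under a locus name with 4 probes, stood at 4.21, 3.35, 3.63 and 3.18. PSMB5 was thus lower in all pMA arrays than in PIP, and lowest with TNF-α, where its inducible partner PSMB8 was 1.04 above unstimulated pMA. The PSMB5 ratio of TNF-α to unstimulated pMA was -0.18, within the technical SD of 0.20, and its 4 probes ranged from -0.29 to -0.15. PSME3, the nuclear activator related to PA28, stood at 2.36, 1.82, 2.36 and 1.96.

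For differentiation, pMA were compared with PIP. All 5 inducible subunits were lower in pMA, with a median log2 ratio of -1.15, and 4 of them were past 2-fold lower. Of all 18633 gene names with a ratio, 3.56% were at least 2-fold lower, and the median of all gene names was 0.12. PSMB8 was 3.83-fold lower (-1.94), PSMB9 2.70-fold (-1.43), PSME1 2.23-fold (-1.15) and PSME2 2.21-fold (-1.14), while PSMB10 was 1.56-fold lower (-0.64). All probes of each inducible gene with several probes had the same sign, and the widest range was that of PSMB9, from -1.43 to -1.18. With spike-in scaling the inducible median was -0.77 and PSME1 (-0.77) and PSME2 (-0.76) were no longer past 2-fold.

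None of the 19 other members was past 2-fold between pMA and PIP, where 9.94% of all gene names were at least 2-fold higher. With scaling to the median PSMA5 was past it (-1.17), and with spike-in scaling PSMB11 (1.10). They had a median of -0.30 on the log2 scale, and 22.7% of all gene names had a lower ratio, with 13 below 0 and 6 above, but with spike-in scaling the median was 0.083 and 12 were above 0. Relative to the median of all gene names, which itself moved from -0.22 to 0.52 with the scaling and filter, the median of the other members was lower in all 10 ways of processing, by between 0.26 and 0.72. That of the inducible subunits was lower by between 1.08 and 1.57. A change of scaling shifts members and all gene names together, so it could hardly alter these differences.

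At the low end PSMA5, an alpha ring subunit, stood at 5.46 in PIP and 4.63 in pMA, a ratio of -0.82, so it lay below PSMB10 and the groups of genes overlapped. PSMD14, the enzyme that removes ubiquitin chains from substrates, stood at 5.02 and 4.47, a ratio of -0.55, and its second probe gave -0.81. At the high end PSMB11 stood at -4.34 and -3.61, a ratio of 0.72, close to the faintest signal called well above background on these arrays (-5.13 and -4.64). PSMD12, a regulatory subunit, stood at 2.65 and 2.90, a ratio of 0.25. The alpha subunits other than PSMA5 had ratios of -0.49 to 0.01, and both ATPases, PSMC1 and PSMC6, had -0.35. Among the 11 other members with several probes, 8 had all probes on the same side of 0, and the 7 probes of PSMC6 ranged from -0.54 to 0.07.

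**Figure D2:**
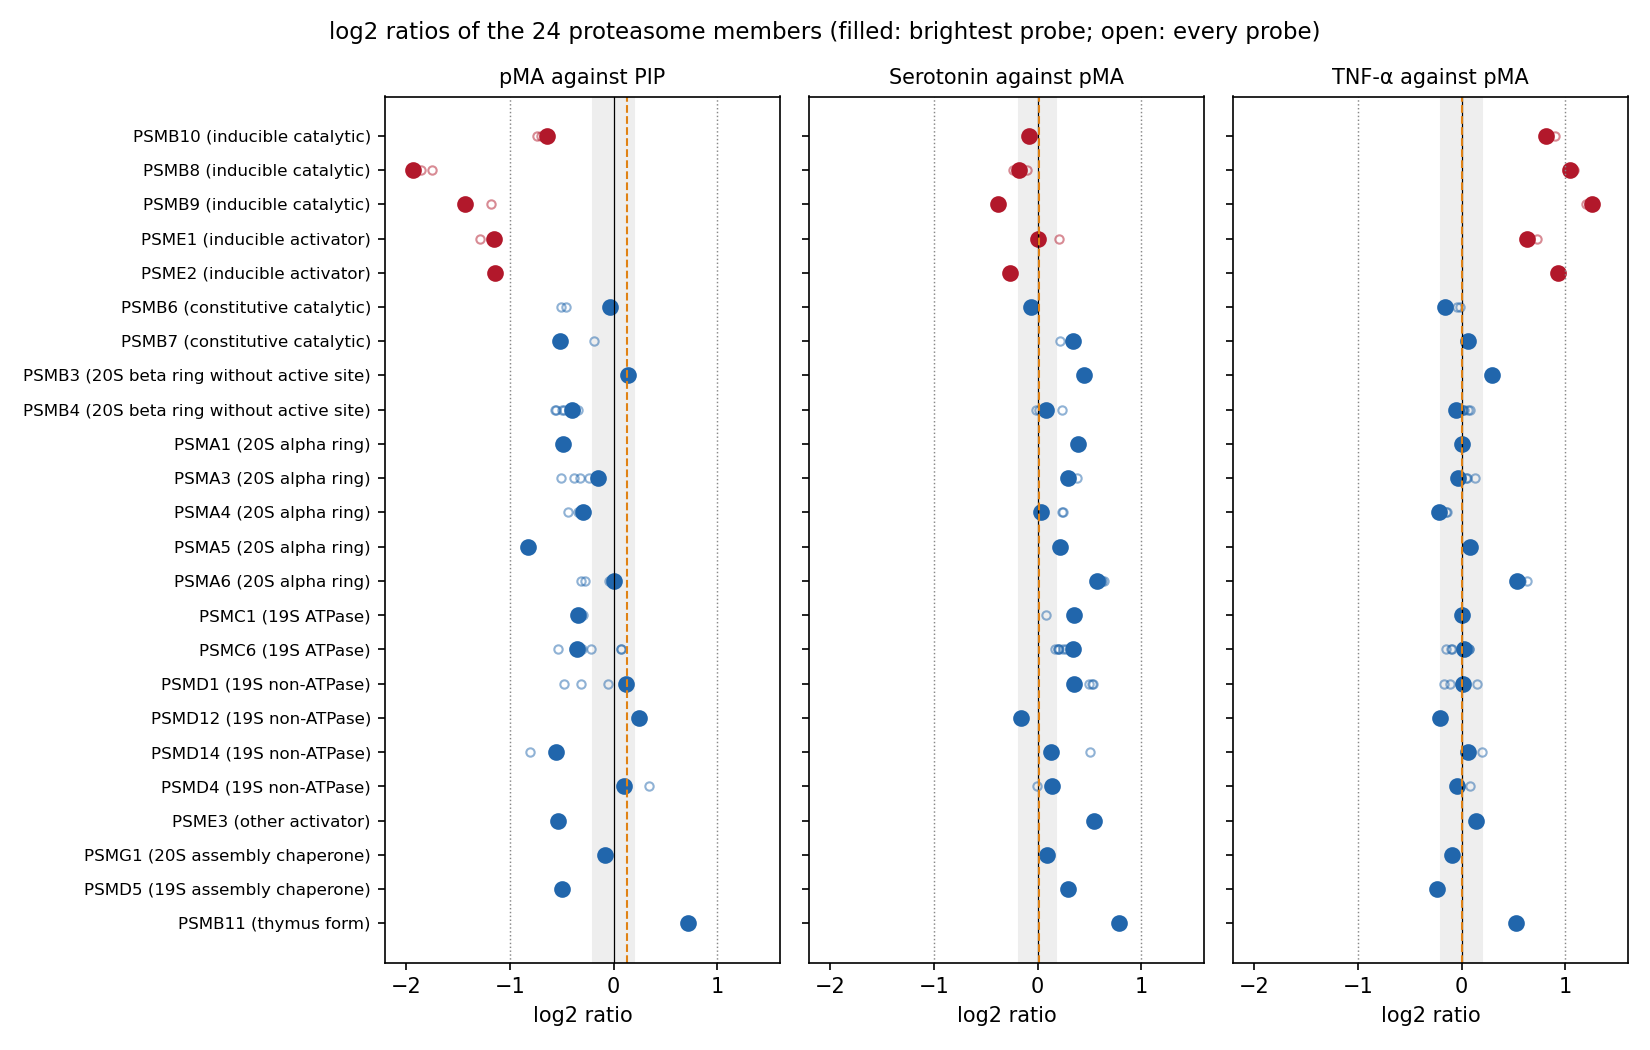
log2 ratio (x axis) of each of the 24 members (y axis, with its role) for pMA against PIP, serotonin against pMA and TNF-α against pMA. Filled points are the brightest probe, open points every probe, red the inducible subunits and blue the others; the grey band is the technical SD of a ratio, dotted lines are 2-fold and the dashed line is the median of all gene names. In pMA against PIP the filled red points (-1.94 to -0.64) are left of the filled blue ones except that PSMB10 lies to the right of PSMA5 (-0.82). An open PSMD14 point (-0.81) also lies left of PSMB10. With TNF-α the filled red points (0.63 to 1.26) are right of all filled blue points, and an open PSMA6 point (0.63) meets PSME1 (0.63). The blue median of -0.30 in the first panel becomes 0.083 with spike-in scaling.

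For TNF-α, stimulated pMA were compared with unstimulated pMA. All 5 inducible subunits were higher, between 0.63 and 1.26 on the log2 scale, and none of the other members reached that range on its brightest probe. PSMB9 was 2.39-fold higher (1.26) and PSMB8 2.06-fold (1.04). PSME2 was 1.91-fold higher (0.93), PSMB10 1.76-fold (0.82) and PSME1 1.54-fold (0.63). Past 2-fold were 2 of the 5, against 2.21% of all 19782 gene names (1.34% were as far lower), and past 1.5-fold higher were 5 of 5, against 6.89% of all gene names. The PSMB8 ratio was 0.93 with normexp background correction and 0.96 with scaling to the median, and then only PSMB9 was past 2-fold.

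The probes of the inducible genes lay close together after TNF-α. The 3 probes of PSMB8 ranged from 1.03 to 1.09, the 3 of PSMB10 from 0.81 to 0.90, the 2 of PSMB9 from 1.20 to 1.26 and the 2 of PSME1 from 0.63 to 0.73. A pair of PSMB8 probes and a pair of PSMB10 probes overlap in sequence. PSME2 had 1 probe.

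The other members centred on the median of all gene names after TNF-α, with a median log2 ratio of 0.01, equal to that of all gene names (0.01), and a range from -0.23 to 0.53. This median lay between -0.07 and 0.09 over the ways of processing and so took both signs. None was past 1.5-fold in either direction, where 6.89% of gene names were higher and 5.26% lower by that much. At the high end was PSMA6, an alpha subunit, which stood at 5.97 in pMA and 6.50 with TNF-α, a ratio of 0.53 with 4 probes between 0.53 and 0.63. PSMB11 followed with 0.52, from -3.61 to -3.09. At the low end were PSMD5, a chaperone of the regulatory particle, at -0.23 (1.75 and 1.51), and PSMA4, an alpha subunit, at -0.22 (3.72 and 3.50). In each of the 10 ways of processing, the lowest inducible ratio was above the highest of the other members. Scaling shifts all members alike and the filters removed no member probe, so these settings could not change that order. Those that could gave 0.60 against 0.57 (normexp), 0.62 against 0.50 (quantile normalization) and 0.68 against 0.57 (median over probes).

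For serotonin, stimulated pMA were compared with the same unstimulated array. No member was past 2-fold, where 2.08% of gene names were at least 2-fold higher and 4.73% lower. The other members were higher as a group, with a median of 0.30 beside 0.01 for all gene names, and 17 of 19 were above 0. A ratio above the technical SD of 0.17 was measured in 12 of the 19, against 33.2% of all gene names, and a ratio as far below 0 in 0 of 19, against 33.3%. The median of the other members was between 0.28 and 0.42 over all ways of processing. On the same array the skeletal muscle markers had a median of -0.89 (4 of 4 with a ratio below 0, ACTA1 at -1.94 and DES at -1.02), the endothelial markers of -0.79 (3 of 3 below 0, PECAM1 at -1.46) and the preadipocyte and fibroblast markers of -0.61 (3 of 4 below 0, COL1A1 at -1.41), and their part in the result was not tested. The inducible subunits had a median of -0.18, with PSMB9 at -0.38, PSME2 at -0.27, PSMB8 at -0.18, PSMB10 at -0.09 and PSME1 at 0.01. Their range overlapped that of PSMD12 (-0.16, from 2.90 to 2.75) and PSMB6 (-0.07). With spike-in scaling the inducible median was -0.06 and PSMB10 was at 0.04.

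At the high end after serotonin, PSMB11 had a ratio of 0.79, from -3.61 to -2.83, the sole member past 1.5-fold, where 8.34% of gene names were that much higher and 12.6% lower. With normexp background correction, which lifts faint signals, its ratio was 0.23. PSMA6 stood at 5.97 in pMA and 6.54 after serotonin, a ratio of 0.57 with 4 probes between 0.57 and 0.64, close to its ratio with TNF-α. PSME3 followed at 0.54. The ATPases PSMC1 (0.35) and PSMC6 (0.34) and the regulatory subunit PSMD1 (0.35, the large scaffold of the particle) were higher by similar amounts, and the 7 probes of PSMC6 lay between 0.17 and 0.34.

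The stimulated arrays were also compared with each other. For each member this ratio is its TNF-α ratio minus its serotonin ratio, so it restates the comparisons above and is no separate support. All 5 inducible subunits were higher with TNF-α than with serotonin, by 0.62 (PSME1) to 1.64 (PSMB9, 3.12-fold), and 3 were past 2-fold, against 5.07% of the 21862 gene names (1.83% were as far lower). All 19 other members were lower with TNF-α, between -0.53 and -0.04, with a median of -0.25 beside 0.04 for all gene names. Of all 21862 gene names, 10116 were below 0. At the low end were PSMD5, at 2.04 after serotonin and 1.51 with TNF-α, and PSME3 (-0.40). At the high end were PSMA6 (-0.04) and PSMD12 (-0.05). The ranges of the inducible and other members did not overlap in this comparison under any of the 10 ways of processing. Of these, only normexp, quantile normalization and the median over probes could change the order of members.

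**Figure D3:**
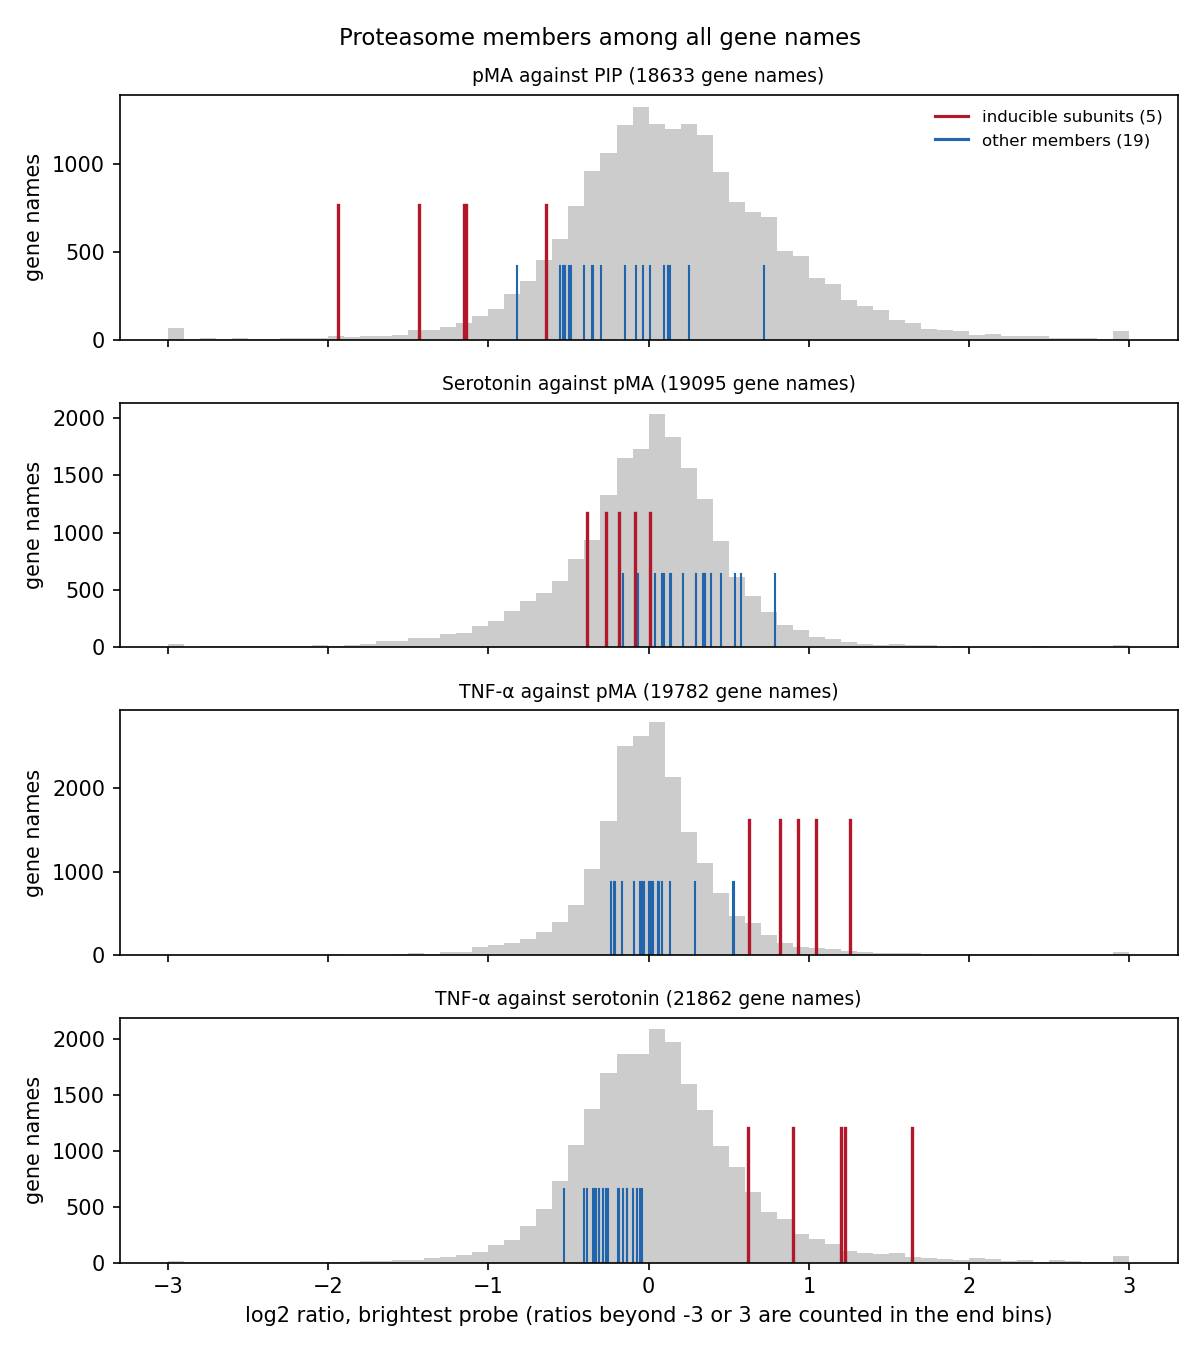
Number of gene names (y axis) by log2 ratio (x axis) in each comparison in grey, with the ratio of each of the 5 inducible subunits (red, tall lines) and the 19 other members (blue, short lines). With TNF-α the red lines stand to the right of the blue ones, which lie around the centre of all gene names; line height carries no value.

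Some proteasome genes carry another name on the array, and RefSeq named 5 of them through a gene ID, a synonym or a transcript accession, with 11 probes. PSMD10, an assembly chaperone also known as gankyrin, stood at 1.57 in PIP, 0.46 in pMA, 0.52 after serotonin and 0.45 with TNF-α, so it was 2.15-fold lower in pMA (-1.11) with 1 probe. PSMB5 had ratios of -0.85 for differentiation, 0.28 for serotonin and -0.18 for TNF-α, and its 4 probes had the same sign in each. PSMC5 (-0.17), PSMD3 (-0.44) and PSMG4 (-0.26) were within the range of the other members for differentiation, and none of the 5 exceeded 0.33 in size after stimulation of pMA. The symbol was the same in RefSeq for all 17 members that could be matched there.

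Of 30 names of partners (ubiquitin genes, shuttle factors, deubiquitinases and regulators), the array held 17, a ratio was available for 16, and none was past 2-fold in any comparison. NFE2L2, a stress factor that induces proteasome genes, and the shuttle factor UBQLN4 came nearest, both at -0.90 for differentiation. The median of the 16 was -0.13 for differentiation, 0.02 for serotonin and -0.08 for TNF-α. Of all gene names, 9.94% were at least 2-fold higher and 3.56% lower for differentiation, and 2.08% and 4.73% for serotonin. These shares were 2.21% and 1.34% for TNF-α, and 5.07% and 1.83% for TNF-α against serotonin. With so few partners, the lack of a 2-fold difference says little. Of 14 class I pathway genes 7 were on the array and none was past 2-fold, which again says little beside these shares. TAP1, the gene between PSMB8 and PSMB9, was nearest to that limit, and stood at 1.91 in PIP, 0.98 in pMA, 0.97 after serotonin and 1.93 with TNF-α. Its second probe gave 0.30 rather than -0.93 for pMA against PIP and 0.72 rather than 0.95 for TNF-α. TAP2, on the other side of PSMB8, had ratios of 0.23 for differentiation, -0.11 for serotonin and 0.00 for TNF-α. Its second probe gave 0.07, -0.14 and 0.48, so the 2 probes of TAP2 disagreed for TNF-α.

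Of 21 interferon and NF-κB control genes, 18 were on the array. For differentiation 2 were past 2-fold higher, NFKB2 (3.08) and NLRC5 (1.32), and 3 lower, which is 11.8% and 17.6% of the 17 with a ratio, beside 9.94% and 3.56% of all gene names. The latter were IRF2 at -1.17, IRF9 at -1.01 and IFNB1, which was well above background in PIP alone and at least 2.10-fold lower. The probes of IRF2 disagreed in sign (-1.17 to 0.85), and the second probe of NFKB2 gave 1.52. With TNF-α 2 of 16 were past 2-fold higher (12.5%, beside 2.21% of all gene names), NFKBIA, the NF-κB inhibitor that NF-κB itself induces, at 3.04 and NFKB1 at 1.17. IRF1, an activator of the immunoproteasome genes, stood at 1.96 in PIP, 1.17 in pMA, 0.66 after serotonin and 1.93 with TNF-α. NLRC5 stood at -2.28, -0.96, -1.12 and -1.35 on the same arrays. Of the 16 ratios with TNF-α, 9 were above 0 and 7 below. The latter included NFKB2 (-0.56) and RELA (-0.50), each with another probe above 0. The part of any of these genes in the levels of the inducible subunits was not tested. With serotonin NFKBIA was also higher (1.97), and NFKB2 was lower (-1.44), with a second probe at 0.25. With TNF-α against serotonin IRF1 (1.27) and NFKBIA (1.07) were past 2-fold higher. IFNG was not well above background in PIP, pMA or after serotonin. With TNF-α it stood at -4.87, close to the faintest signal called well above background on that array (-5.25). It had no ratio to unstimulated pMA, and its lower bound against serotonin was 0.25.

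**Figure D4:**
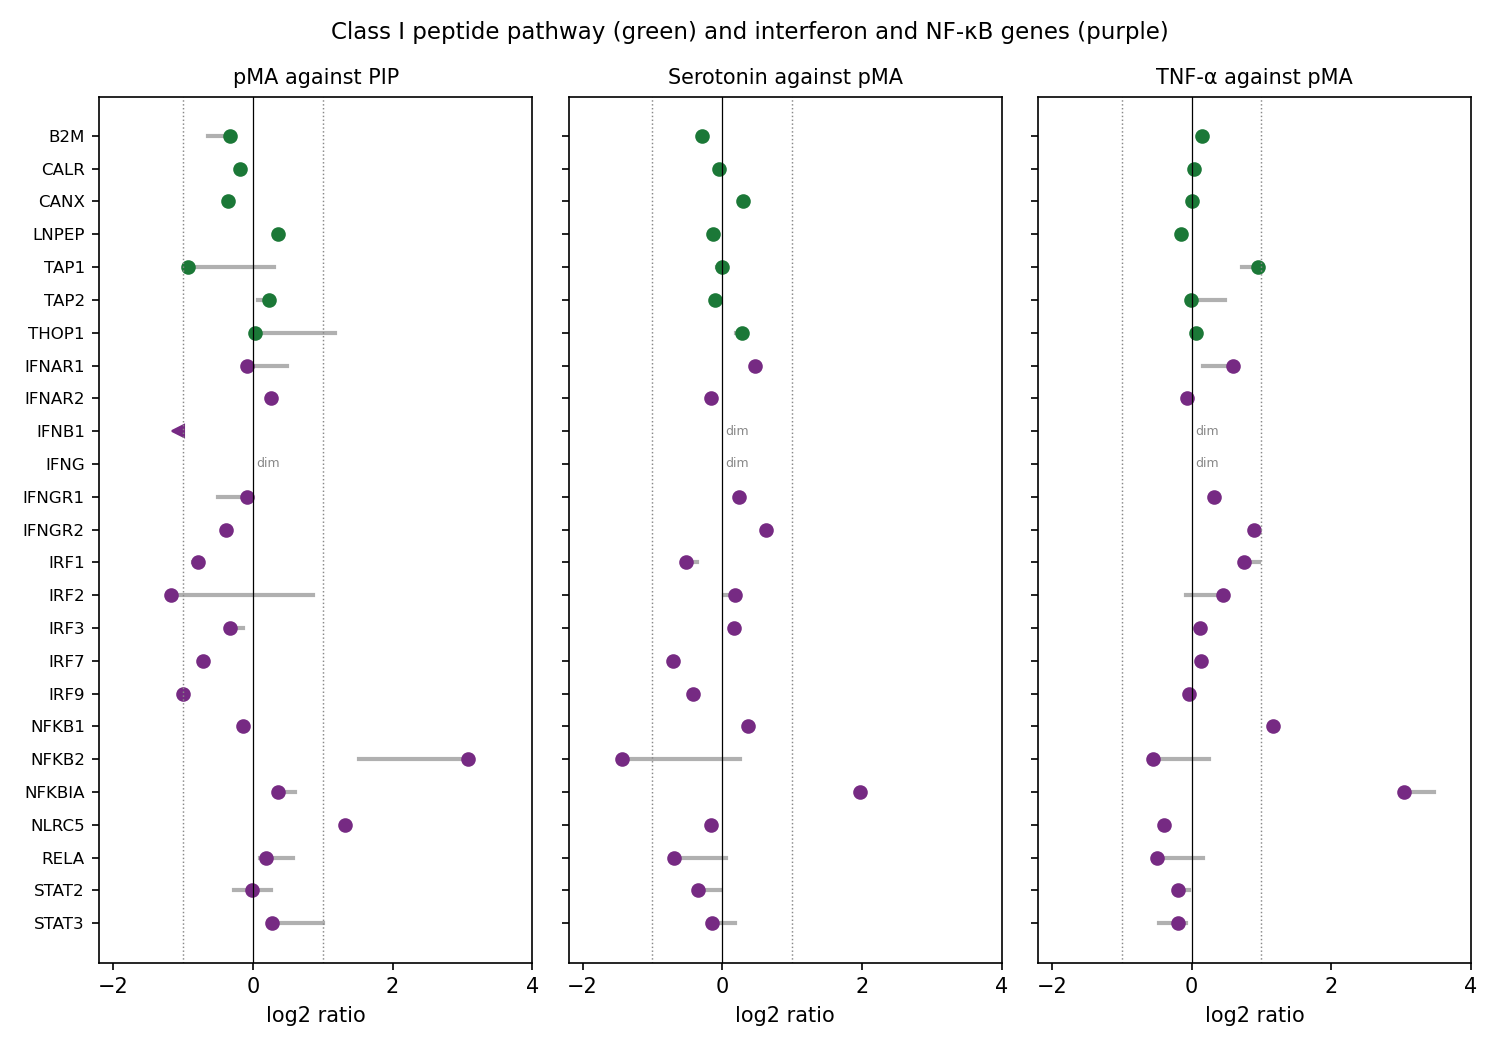
log2 ratio (x axis) of the class I pathway genes (green) and of the interferon and NF-κB control genes (purple) in the comparisons of pMA with PIP and of stimulated with unstimulated pMA. Points are the brightest probe and grey bars the range over probes, a triangle is a lower bound of the change and dim marks genes without a ratio; TAP1 (0.95) and NFKBIA (3.04) stand highest in their groups with TNF-α.

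**Figure D5:**
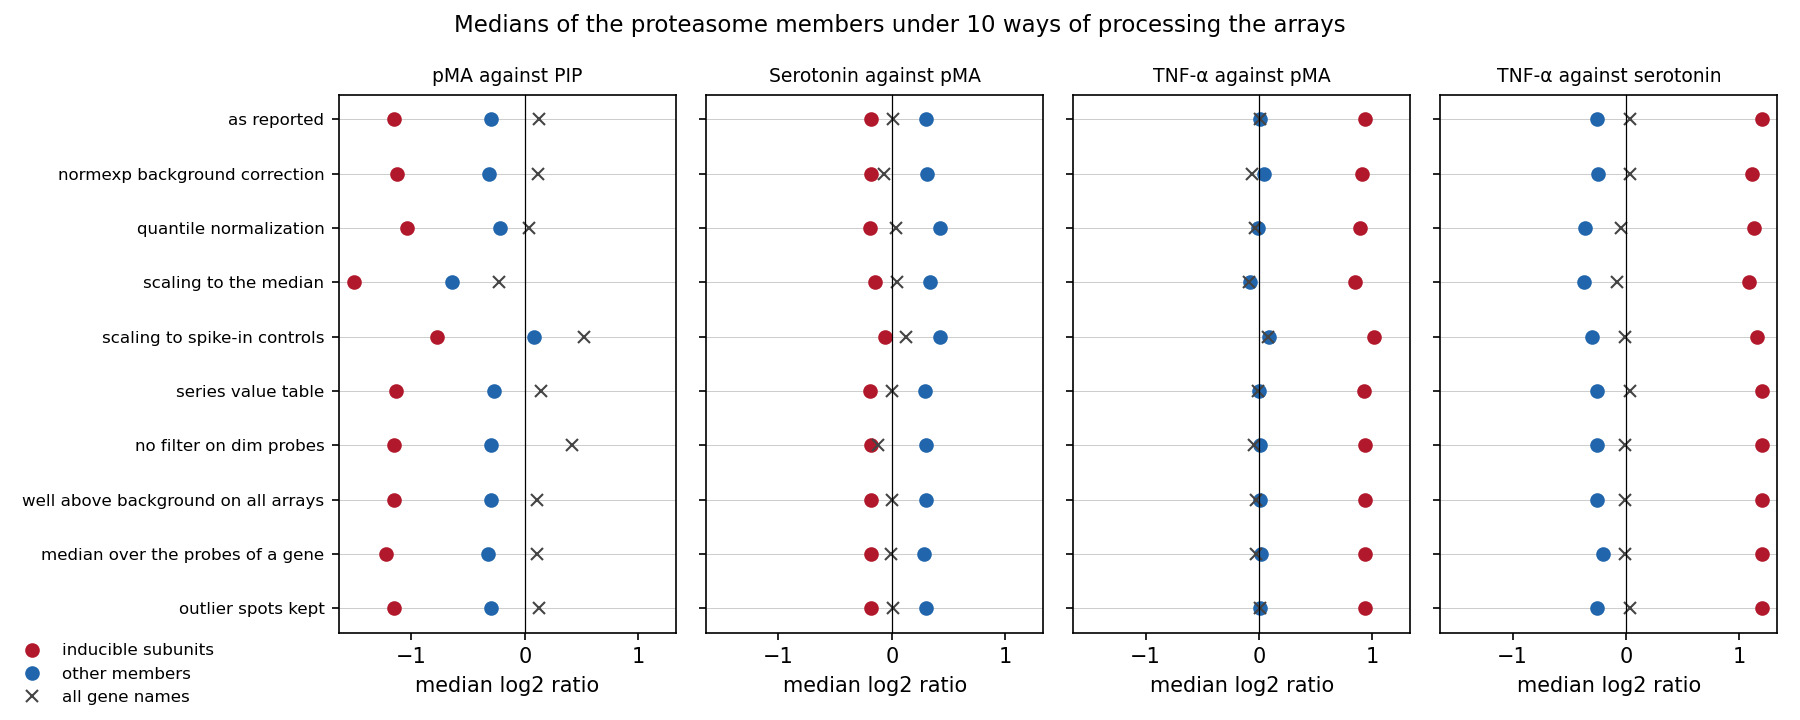
Median log2 ratio (x axis) of the inducible subunits (red), the other members (blue) and all gene names (crosses) under each of 10 ways of processing (y axis) in the 4 comparisons. Red stays left of blue in pMA against PIP and right of it with TNF-α throughout, whereas the blue median for pMA against PIP changes from -0.30 as reported to 0.083 with spike-in scaling, together with all gene names (0.12 to 0.52). Only normexp, quantile normalization and the median over probes could change the order of red and blue.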

How the data were processed

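Members and gene lists were chosen with earlier results of these data known. The deposited files hold intensity values from 4 one-color (Cy3) porcine arrays, 1 per group, extracted by the authors with Agilent Feature Extraction 10.7.3.1 and background-subtracted; the methods also describe a mouse array and a two-color protocol, which the files do not match. The deposited value table holds the same signals divided by a constant per array, a scaled signal. Here, log2 processed intensity minus the log2 75th percentile of the 43803 non-control spots was used, outlier spots were left out, and a gene was given by its probe of highest mean. Where 1 of 2 arrays was dim, the ratio was a lower bound. The 2-fold cutoff follows the methods. Named were the inducible subunits, their counterparts, members past 2-fold and the 2 highest and 2 lowest others per comparison. Alternatives were normexp (offset 50) and quantile normalization in limma 3.58.1 (R 4.3.3), scaling to the median or to 7 spike-in probes, the value table, other dim filters, the median over probes and outliers kept. Scripts ran in Python 3.11.15 and were tested on simulated data. Some genes of the pathway and marker lists are not reported here.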

Additional observations from a re-analysis of the deposited data

Results flagged for a closer look

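In 4 members, with the reported scaling, the ratios to unstimulated pMA had opposite signs after serotonin and after TNF-α, each larger than its technical SD. Both ratios use the same unstimulated array, and with 1 array per group the difference was not tested. PSMB9 was -0.38 after serotonin and 1.26 with TNF-α, and the stimulated arrays differed by 1.64. PSMB8 was -0.18 and 1.04, a difference of 1.23, and PSME2 was -0.27 and 0.93, a difference of 1.20. PSMD5, the chaperone of the regulatory particle, went the other way, at 0.30 after serotonin and -0.23 with TNF-α, a difference of -0.53 on 1 probe. With spike-in scaling the signs remained, but PSMB8 (-0.06) and PSME2 (-0.14) after serotonin were within the technical SD of 0.17. PSMD5 with TNF-α (-0.15) was then within that of 0.20.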

How the results depend on the processing

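No paired analysis was possible because each group had 1 array, and no array could be left out for the same reason. For pMA against PIP, scaling to the median moved the median log2 ratio of the other members from -0.30 to -0.65 and that of the inducible subunits from -1.15 to -1.50, while spike-in scaling moved them to 0.083, a change of sign, and -0.77. The scaling itself shifts all gene names by the same amount. Spike-in scaling of TNF-α-treated pMA beside PIP, a comparison chosen after seeing the data, turned PSMB9 from -0.17 to 0.29 and PSME2 from -0.21 to 0.25. The number of members past 2-fold depended on the cutoff. It was 4 for pMA against PIP, 0 at 4-fold and 7 at 1.5-fold. With spike-in scaling it was 3, with PSMB11 in place of PSME1 and PSME2, and with scaling to the median it was 5, with PSMA5 added. For serotonin it was 0, and 1 at 1.5-fold. For TNF-α it was 2, but 1 with normexp or with scaling to the median, 0 at 4-fold and 5 at 1.5-fold, and for TNF-α against serotonin it was 3, 0 at 4-fold and 5 at 1.5-fold. Of 132 alternative values of medians and counts, 119 stayed within the technical SD of the reported median or within 1.5 times the reported count, among them those that added the genes named through RefSeq or left out PSMB11, both chosen after seeing the data. The median of the other members with TNF-α, 0.01 as reported, took both signs within that limit (-0.07 to 0.09). Of 540 alternative values of single named genes, 497 stayed within the technical SD, and none with a ratio past 2-fold changed sign. Both tallies include the other dim filters and the kept outliers. These settings could not alter any member value, since all 63 member probes were well above background and free of outlier marks. The technical SD covers spot noise, not the spread between cultures.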
